A study of Mus musculus with 24 samples.

Results

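The 10 genes followed here mark the pyramidal neurons of the 3 fields of the hippocampus. They were taken by symbol from the gene counts, as 4 genes of CA1 (Wfs1, Fibcd1, Mpped1 and Pou3f1), 3 genes of CA2 (Rgs14, Amigo2 and Map3k15) and 3 genes of CA3 (Iyd, Bok and Grik4), out of 49568 gene symbols in the files. All 10 passed the filter on low counts, which left 18482 genes to test. Whole hippocampus was sequenced from WT mice and from mice with kinase-dead MSK1 (KD), a nuclear kinase activated by BDNF, and both genotypes were kept in standard housing (SH) or reared in an enriched environment (EE). The labels give an age of 12 weeks for all groups.

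The groups analysed were WT SH (n = 6 libraries), WT EE (n = 5), KD SH (n = 6) and KD EE (n = 5), which makes 22 of the 24 libraries of the series. The KD mice carry a point mutation in the endogenous Msk1 gene (Rps6ka5) that inactivates the N-terminal kinase domain, on a C57-Bl/6J background after backcrosses from C57-Bl/6n, and were bred as a homozygous line beside a WT line, so that genotype and line cannot be told apart. All mice were male. The enriched mice were reared in large cages with a running wheel, tubes and toys, and the SH mice in ordinary cages. Enriched cages also held several dams and larger groups of males, which cannot be told apart from the other parts of enrichment. The mutation leaves the transcript intact, so the level of Rps6ka5 checks no label. It was 24.9 ± 2.21 CPM (counts relative to the library total, scaled by TMM) in WT SH, 21.4 ± 1.92 in WT EE, 25.4 ± 2.18 in KD SH and 23.6 ± 3.47 in KD EE (mean ± SD). The labels name no mouse and no batch. The library codes that end in a letter are all EE, while EE also holds libraries without a letter in both genotypes. A difference tied to these codes is therefore partly confounded with housing.

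Excitation passes through the hippocampus from the dentate gyrus to CA3 and on to CA1 by mossy fibres and Schaffer collaterals, with CA2 between both fields. The pyramidal neurons of each field express genes that the neighbouring fields express weakly or not at all, and such genes are used to tell the fields apart in dissected or dissociated tissue. CA1 is the field in which Schaffer collateral plasticity is most often recorded, and CA2 is known for its resistance to synaptic potentiation and its role in social memory. In a bulk sample, fewer cells of a field and less RNA per cell cannot be told apart.

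Counts on genes ran from 8911999 to 56752074 per library (median 30265877), and a floor of 3 counts stood for 0.0529 to 0.337 CPM. Several libraries stood apart in markers of other cells. The thalamic list (6 genes) summed to 341 CPM in WT SH 12 and to 94.0 CPM or less in the other 21 libraries, and the striatal list (6 genes) to 163 CPM in WT SH 14 and to 114.8 CPM or less elsewhere. KD SH 5 had the highest sum of the subiculum and neocortex list (544 CPM) and the lowest of the dentate granule list (242 CPM). The ventral hippocampus list (5 genes) ran from 95.4 CPM in WT EE 35A to 211 in WT EE 33A. It stood at 102 CPM in KD SH 6 and 108 in KD SH 5. The share of dorsal and ventral tissue was not tested. The choroid plexus list (10 genes, Ttr included) ran from 38.7 to 5706 CPM, with group medians of 73.3 CPM in WT SH, 133 in KD SH, 4088 in WT EE and 2223 in KD EE. The study left libraries 2, 9, 12, 31B and 35A out of its own comparisons, and the values over its 17 libraries are given where they change a call.

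All 10 genes were detected in every library. Per kilobase of exon, the levels fell in the order Mpped1 (60.6 CPM per kb, mean of 22 libraries), Wfs1 (47.7), Fibcd1 (37.2), Bok (34.7), Rgs14 (23.1), Pou3f1 (13.8), Grik4 (10.7), Amigo2 (6.61), Iyd (2.18) and Map3k15 (0.662). Most neighbours in this order kept their places in at least 20 of 22 libraries, except Fibcd1 and Bok, of which Fibcd1 was the higher in 14. The lowest counts of Map3k15 and Iyd in any library were 12 and 38, against 235 or more for the other 8 genes, so these levels are the least precise. The spread between libraries ran from a CV of 5.79% for Mpped1 to 36.7% for Map3k15, beside a median of 12.9% over all genes tested.

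**Figure D1:**
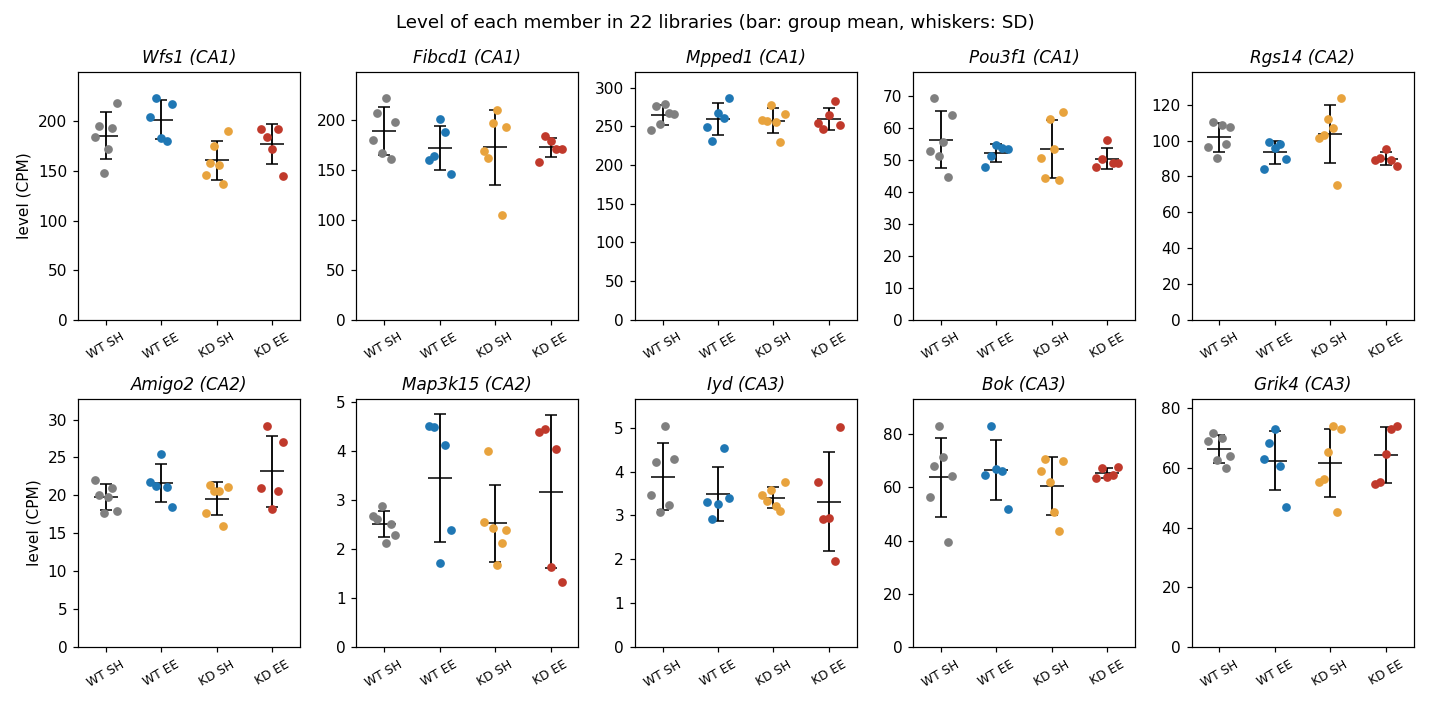
Level of the 10 pyramidal genes in CPM (y axis, from 0) in each of 22 libraries (points), by genotype and housing, with the group mean (bar) and SD (whiskers). The 4 groups overlap in every panel, Mpped1 lies between 230 and 286 CPM throughout, and Map3k15 splits into libraries at 4.00 to 4.51 CPM and libraries at 1.33 to 2.88 CPM.

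Housing and genotype were each tested within the other and averaged over the other, and their interaction was tested too, in 1 model over the 22 libraries (edgeR's quasi-likelihood test, Benjamini-Hochberg adjustment over 18482 genes). To be called, a gene needed an adjusted p no higher than 0.05 and a log2 fold change of at least 0.38 in either direction, the bound of the study's methods. By this rule 0 of the 10 genes were called for EE against SH averaged over genotypes, in which 0.146% of all genes tested were called. In the other 6 comparisons 0 of 10 were called as well, where 0% of all genes were, and DESeq2 called 0 of 10 in each of the 7. DESeq2 called 1.29% of the genes to which it gave an adjusted p for averaged housing, 0.118% in WT, 0.00566% in KD and 0.00566% between genotypes in SH, and 0% in the other 3. The share by edgeR for averaged housing rests on 27 genes, and leaving out 1 library gave from 2 genes (without KD SH 1, for example) to 287 (without WT EE 31B). At an unadjusted p under 0.05, 3 of 10 passed for averaged housing (Rgs14, Amigo2 and Map3k15), beside 16.1% of all genes. Within genotypes, 2 of 10 passed in KD (Rgs14 and Amigo2), beside 9.63% of all genes, and 0 of 10 in WT, beside 8.65%. Between genotypes, Wfs1 alone passed in SH, beside 5.76% of all genes, and on average over housings, beside 6.06%. None passed in EE, beside 2.61%, or for the interaction, beside 2.04%, and no adjusted p for the interaction was under 0.999. No member was free of overlap between 2 groups compared, where few of all genes were. Of all genes, 0.46% lay wholly above and 0.73% wholly below in WT EE against WT SH, 0.233% and 0.314% in KD EE against KD SH, 0.103% and 0.173% in WT SH against KD SH, and 0.173% and 0.151% in WT EE against KD EE.

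**Figure D2:**
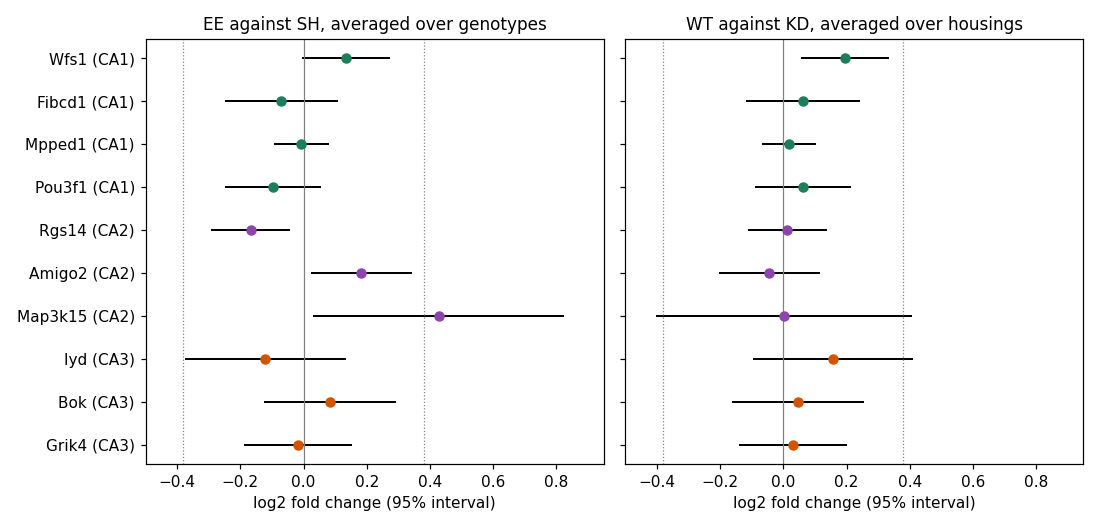
Fitted log2 fold changes (points, coloured by field) with 95% intervals (lines) for the 10 genes, with EE against SH averaged over genotypes on the left and WT against KD averaged over housings on the right. Dotted lines mark a log2 fold change of 0.38 in either direction, and Map3k15 has the widest interval, from 0.03 to 0.82 for housing.

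None of the 4 CA1 genes passed the test for housing, and for housing averaged over genotypes their 95% intervals stayed within a log2 fold change of 0.38. Mpped1, a metallophosphoesterase of the nervous system (15:83779467-83858494, GRCm38), had group means of 265 ± 13.1 CPM in WT SH, 259 ± 20.3 in WT EE, 257 ± 15.9 in KD SH and 260.1 ± 14.4 in KD EE. Its log2 fold change for averaged housing was -0.01, with a 95% interval of -0.09 to 0.08, the narrowest of the 10 genes. Fibcd1, a membrane receptor that binds acetylated sugars such as chitin (2:31813290-31846005), lay at 189 ± 23.6, 172 ± 22.3, 172 ± 37.6 and 172 ± 9.91 CPM in the same order of groups. Its log2 fold change was -0.07 (interval -0.25 to 0.11, adjusted p = 0.735 by edgeR's quasi-likelihood test), which was -0.12 without KD SH 5 and -0.03 without KD SH 4. Pou3f1, a POU-domain transcription factor whose single exon lies at 4:124656807-124660655, gave 56.3 ± 8.95, 52.1 ± 2.71, 53.3 ± 9.0 and 50.4 ± 3.34 CPM. Its housing difference of -0.10 on the log2 scale had an interval of -0.25 to 0.05.

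Wfs1, which encodes wolframin of the endoplasmic reticulum membrane (5:36966104-36989205), was the CA1 gene with the largest difference between genotypes. In WT SH it ran from 148 CPM (library 12) over a median of 189 to 218 (library 15), and in KD SH from 137 (library 5) over a median of 157 to 191 (library 6). The WT EE libraries held 205 (16), 223 (17), 183 (31B), 180.4 (33A) and 217 CPM (35A), and the KD EE libraries 173 (7), 192 (8), 144 (9), 193 (32A) and 184 (36A). WT libraries were thus mostly the higher ones in both housings, with overlap in each. The log2 fold change of WT against KD was 0.21 ± 0.09 (SE) in SH, 0.18 ± 0.10 in EE and 0.20 ± 0.07 averaged over housings (interval 0.06 to 0.33). The averaged difference stood for 1.15-fold (interval 1.04 to 1.26), with an adjusted p of 0.803 by edgeR's quasi-likelihood test, so that it did not hold over all genes tested. For housing, Wfs1 was 0.13 higher in EE on the log2 scale (interval -0.0028 to 0.27, adjusted p = 0.323 by the same test).

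MSK1 is known to phosphorylate CREB, which binds the cAMP response element TGACGTCA or its shorter form TGACG. The bases before the annotated starts were read for these letters on both strands, in RefSeq windows of 250 bases (GRCm38.p6) that were found for 7 of the 10 genes. The full element was in 0 of their 8 windows, where 1.55% of 32851 windows of all genes held it. The shorter form was in 2 of 8, beside 17.8% of all windows, and lay 199 bases before the start of Fibcd1 and 181 before that of Iyd. Both windows are shown 5′ to 3′ on the strand of the gene, with the shorter form, here read from the other strand, in capitals. Fibcd1 is at chr2:31846006-31846255 on the minus strand and Iyd at chr10:3540024-3540273 on the plus strand.
Fibcd1: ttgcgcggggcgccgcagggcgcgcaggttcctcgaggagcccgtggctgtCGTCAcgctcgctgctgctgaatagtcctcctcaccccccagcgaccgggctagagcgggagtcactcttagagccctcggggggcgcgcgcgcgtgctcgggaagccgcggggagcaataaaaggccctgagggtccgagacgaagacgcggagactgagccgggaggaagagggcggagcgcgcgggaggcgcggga
Iyd: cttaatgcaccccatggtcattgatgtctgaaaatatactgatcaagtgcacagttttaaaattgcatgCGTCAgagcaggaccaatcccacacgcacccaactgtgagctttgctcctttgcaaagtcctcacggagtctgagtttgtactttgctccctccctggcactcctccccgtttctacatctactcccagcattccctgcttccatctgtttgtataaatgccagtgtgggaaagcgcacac
The match describes letters and says nothing of binding. Neither of these genes was called in any comparison.

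The 3 genes listed for CA2 were the 3 members with an unadjusted p under 0.05 for averaged housing, beside 16.1% of all genes tested. None of these 3 was called, and they did not share a direction. Rgs14, a regulator of G protein signalling that restrains plasticity in CA2 neurons (13:55369732-55384687), had the lower fitted mean in EE. It ran from 90.4 CPM (library 12) over a median of 103 to 110.2 (library 11) in WT SH, and from 75.1 (library 5) over 105 to 123.5 (library 6) in KD SH. The WT EE libraries held 84.1 (16), 99.1 (17), 95.9 (31B), 98.1 (33A) and 89.6 CPM (35A), and the KD EE libraries 95.4 (7), 88.9 (8), 85.9 (9), 89.0 (32A) and 90.4 (36A). No EE library exceeded 99.1 CPM, and the SH libraries reached above and below the EE range. The log2 fold change of EE against SH was -0.13 ± 0.08 (SE) in WT, -0.21 ± 0.08 in KD and -0.17 ± 0.06 on average (0.89-fold, interval 0.819 to 0.968). The averaged adjusted p was 0.147 by edgeR's quasi-likelihood test. Without KD SH 5, its lowest library, the averaged change was -0.21 with an adjusted p of 0.0452, which stayed under the fold that a call needed. With the choroid plexus list as a covariate it was -0.17, with an adjusted p of 0.227.

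Amigo2, an adhesion protein with leucine-rich repeats (15:97244125-97247287), had a difference of the opposite sign and similar size. In WT SH it ran from 17.7 CPM over a median of 19.96 to 22.1, and in KD SH from 15.99 (library 5) over 20.6 to 21.3. The WT EE libraries held 21.8 (16), 21.2 (17), 25.5 (31B), 21.1 (33A) and 18.5 CPM (35A), and the KD EE libraries 18.2 (7), 20.6 (8), 27.0 (9), 21.0 (32A) and 29.2 (36A). Of the 10 EE libraries, 31B, 9 and 36A lay above every SH library and the other 7 within the SH range. The log2 fold change was 0.13 ± 0.11 (SE) in WT, 0.24 ± 0.11 in KD and 0.18 ± 0.08 on average (1.14-fold, interval 1.02 to 1.27). It had an averaged adjusted p of 0.227 by edgeR's quasi-likelihood test, and without KD EE 36A the averaged change was 0.13. The change in WT was 0.06 without 31B and that in KD 0.14 without 36A. With the choroid plexus list as a covariate it averaged 0.18 over the 22 libraries, and over the 17 libraries of the study -0.23 ± 0.22. Among those 17 every EE library had a higher sum of this list than every SH library, so that fit separates housing from the list poorly. Exons of Amigo2 overlap those of Pced1b on the other strand, which the counting could not separate, and Pced1b held 3.63 to 6.85 CPM.

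Map3k15, a MAP kinase kinase kinase of the ASK family (X:159988433-160123351), was the member with the largest difference between housings. The WT EE libraries held 4.51 (16), 4.48 (17), 1.72 (31B), 4.11 (33A) and 2.38 CPM (35A), and the KD EE libraries 1.62 (7), 4.04 (8), 1.33 (9), 4.40 (32A) and 4.45 (36A). WT SH ran from 2.13 CPM over a median of 2.55 to 2.88, and KD SH from 1.68 over 2.41 to 4.00 (library 2). The EE libraries thus fell into 6 above 4 CPM and 4 at the SH level or below it, in both genotypes. The log2 fold change was 0.45 ± 0.27 (SE) in WT, 0.40 ± 0.27 in KD and 0.43 ± 0.19 on average (1.34-fold, interval 1.02 to 1.77). The averaged adjusted p was 0.264 by edgeR's quasi-likelihood test. Without the libraries whose codes end in a letter, the change was 0.85 ± 0.29 in WT and 0.02 ± 0.28 in KD (interaction 0.83 ± 0.40, unadjusted p = 0.0517, adjusted p = 0.633 by the same edgeR test), with 2 WT EE and 3 KD EE libraries left. In this setting 1515 of 19153 genes tested had an unadjusted interaction p under 0.05 by that test. Choroid plexus sums were 5246 and 4088.5 CPM in the WT EE libraries left (16 and 17). In the KD EE libraries left they were 1027 (7), 2223 (8) and 210 CPM (9).

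The level of Map3k15 split the libraries as the sum of the choroid plexus genes did. In the 7 libraries with a summed choroid plexus list above 2000 CPM (a bound set after the values were seen) Map3k15 was at 4.00 to 4.51 CPM, and in the other 15 it was at 1.33 to 2.88 CPM. The 7 were 6 EE libraries and KD SH 2, with sums of 2223 to 5706 CPM, or 260.1 to 619 CPM without Ttr, and the 15 had sums of 38.7 to 1864 CPM, or 21.9 to 203.5 without Ttr. None of the 10 choroid plexus genes was at 0 in any library. The bound lies where Map3k15 itself divides, so this describes the libraries and tests nothing about housing. The relation was not strictly graded on either side of the bound. Above it, WT EE 33A had a choroid plexus sum of 5282 CPM and 4.11 CPM of Map3k15, and KD EE 32A had 3057 and 4.40 CPM. Below it, KD EE 7 had a sum of 1027 CPM and 1.62 CPM of Map3k15, and WT SH 10 had 57.35 and 2.68 CPM. All 10 choroid plexus genes had higher fitted means in EE for averaged housing, with log2 fold changes of 1.66 (Kl) to 2.60 (Tmem72) and a median of 2.34. All 10 had an unadjusted p under 0.05, beside 16.1% of all genes tested, and none was called, beside 0.146%. The list was chosen with earlier results of these data known, and its genes mark 1 tissue, so they are not 10 separate results.

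**Figure D3:**
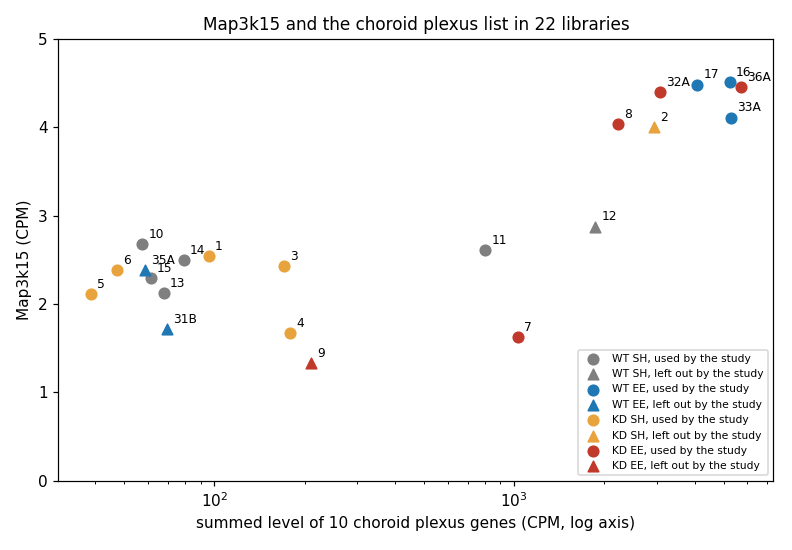
Map3k15 in CPM (y axis) against the summed level of 10 choroid plexus genes in CPM (x axis, log scale) in each of 22 libraries, coloured by group, with triangles for the 5 libraries the study left out. The 7 libraries beyond 2000 CPM on the x axis all hold 4.00 CPM or more of Map3k15, and the 15 others hold 2.88 CPM or less.

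The call for Map3k15 differed with the libraries used. The 17 libraries of the study leave out 3 of the 4 EE libraries with low choroid plexus sums. They also leave out KD SH 2 and WT SH 12, which had the highest sums of their groups (2924 and 1864 CPM). Over the 17, Map3k15 was called in WT (log2 fold change 0.84 ± 0.20, adjusted p = 0.0174), in KD (0.76 ± 0.19, adjusted p = 0.0453) and on average (0.80 ± 0.14, adjusted p = 0.000555) by edgeR's quasi-likelihood test. Over these libraries 3.55%, 1.74% and 3.85% of all genes were called. Map3k15 was then 1 of 10 members called in each of the 3 comparisons. The paper dropped libraries that correlated poorly with others of their group, so p-values over the 17 can understate the spread between libraries. With the choroid plexus list as a covariate over the 22 libraries, the averaged log2 fold change of Map3k15 was -0.06 ± 0.16, and over the 17 libraries it was 0.30 ± 0.42. Among the 17 libraries every EE library had a higher sum of this list (1027 CPM or more) than every SH library (800.2 CPM or less). Pdha1, a mitochondrial enzyme gene that overlaps exons of Map3k15 on the opposite strand, was at 149 to 160 CPM in the 7 libraries and at 140.0 to 167 in the 15. Whether the Map3k15 reads came from CA2 neurons or from choroid plexus tissue was not tested.

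None of the 3 CA3 genes passed the test for housing or genotype, adjusted or not. Grik4, the kainate receptor subunit GluK4 of mossy fibre synapses (9:42518135-42944493), lay at 66.3 ± 4.68 CPM in WT SH, 62.4 ± 9.93 in WT EE, 61.7 ± 11.3 in KD SH and 64.4 ± 9.25 in KD EE. Its log2 fold change for averaged housing was -0.02 (interval -0.19 to 0.15). Bok, a member of the Bcl-2 family (1:93685660-93695764), held 63.7 ± 14.8, 66.6 ± 11.2, 60.5 ± 10.99 and 65.4 ± 1.97 CPM, with a log2 fold change of 0.08 (interval -0.12 to 0.29). The lowest Bok level was 39.4 CPM in WT SH 14, the library with the highest striatal list, and leaving it out gave 0.03. Iyd, the iodotyrosine deiodinase that recovers iodide in the thyroid (10:3540240-3554877), was sparse, at 3.89 ± 0.756, 3.48 ± 0.612, 3.41 ± 0.250 and 3.32 ± 1.14 CPM. KD EE spanned the widest range of Iyd, from 1.97 CPM (library 8) to 5.01 (library 9). Its log2 fold changes were -0.12 (interval -0.37 to 0.13) for averaged housing and 0.16 (interval -0.09 to 0.41) for averaged genotype. Without KD EE 8 they were -0.04 and 0.08, and without KD EE 9 -0.20 and 0.23.

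Between genotypes, the 9 genes other than Wfs1 had averaged log2 fold changes of WT against KD between -0.04 (Amigo2) and 0.16 (Iyd), and none passed an unadjusted p of 0.05. The narrowest interval was that of Mpped1, from -0.07 to 0.10, and the widest that of Map3k15, from -0.40 to 0.40. The median over the 10 genes was 0.04, beside 0.00047 over all genes tested. For averaged housing the median over the 10 was -0.01, with 4 higher and 6 lower in EE, beside 0.0047 over all genes.

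Further genes of the 3 fields, 6 for each, were read in the same way. For averaged housing 0 of 6 were called for CA1, CA2 and CA3 alike, beside the 0.146% of all genes, and 1, 3 and 1 of them had an unadjusted p under 0.05, beside 16.1% of all genes. Their median log2 fold changes were 0.06 for CA1, -0.17 for CA2 and -0.01 for CA3. Among the CA2 genes, Cacng5, an auxiliary subunit of AMPA receptors, was the lowest at -0.40 ± 0.11 (adjusted p = 0.0823 by edgeR's quasi-likelihood test), followed by 3 genes named after their values were seen. These were Pcp4, a calmodulin-binding peptide, at -0.38 ± 0.17 (edgeR adjusted p = 0.268), Ntf3, a neurotrophin, at -0.18 ± 0.10 (0.409) and Necab2, a calcium-binding protein, at -0.15 ± 0.05 (0.139). Ptpn5, a phosphatase of neurons, stood at 0.04 ± 0.04. The CA2 genes of both lists thus included values on either side of 0, and the call rule passed none.

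Across libraries, the largest shared movement was that of 1 library. KD SH 5 was the lowest of 22 in 7 of the 10 genes (Wfs1, Fibcd1, Mpped1, Pou3f1, Rgs14, Amigo2 and Grik4) and below the median in all 10, by 0.38 on average on the log2 scale. Its members were low in each field, by 0.40 in CA1, 0.34 in CA2 and 0.40 in CA3. The further genes of the fields did not share this for CA1, where their mean log2 level lay 0.0026 above the median of the 22 libraries, and gave -0.07 for CA2 and -0.21 for CA3. Beside its high subiculum and neocortex list and low dentate list, its pan-neuronal list (9495 CPM) lay within the range of the other KD SH libraries. No other library was the lowest in more than 1 gene. In the CA3 members the next lowest libraries were WT SH 14, at -0.30 with all 3 genes below their medians, and WT EE 35A, at -0.26 with Grik4 at 46.9 and Bok at 51.7 CPM but Iyd at its median (0.01). The further CA3 genes lay at -0.01 in WT SH 14 and at -0.36 in WT EE 35A. WT EE 35A was next to KD SH 5 in its subiculum and neocortex list (515 CPM) but had the highest dentate granule list (448 CPM). The part of neighbouring tissue in these levels was not tested.

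**Figure D4:**
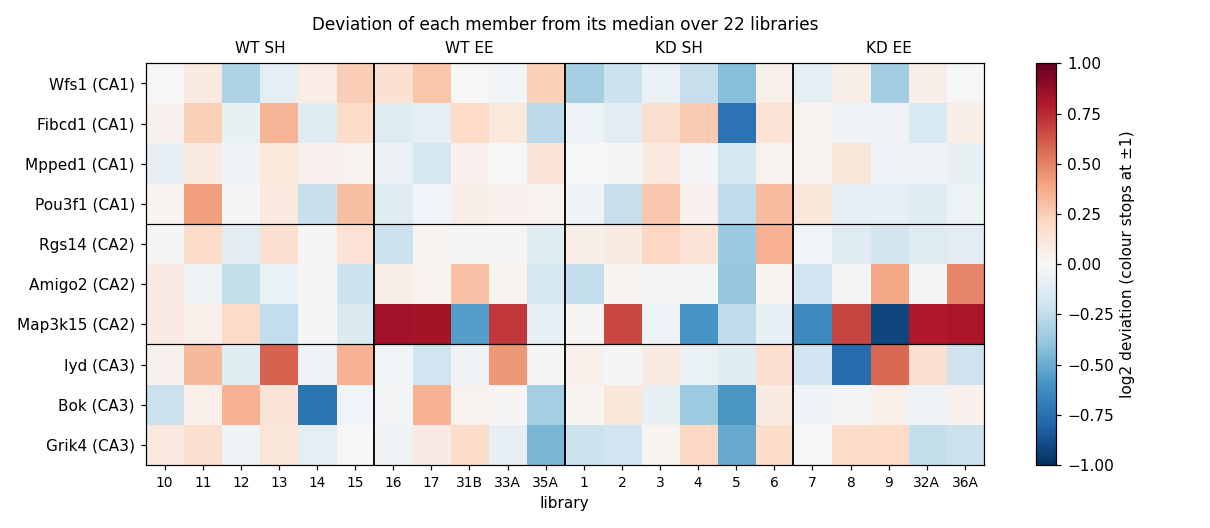
Deviation of each of the 10 genes (rows, by field) from its median over 22 libraries, on the log2 scale (colour), in each library (columns, by group). KD SH 5 is low in all 10 rows, and Map3k15 changes most between libraries, within groups as well as between them.

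Correlations between the members were computed for all 45 pairs over the 22 libraries, which differ in depth, group and markers of neighbouring tissue. By a permutation test with adjustment over the 45 pairs, 4 pairs passed an adjusted p of 0.05, all positive. Fibcd1 was correlated with Grik4 (Pearson r = 0.755, Spearman rho = 0.695, permutation p = 4e-05 and 0.00054, adjusted 0.0018 and 0.00945) and with Rgs14 (r = 0.754, rho = 0.679, permutation p = 9e-05 and 0.00064, adjusted 0.00203 and 0.00945). Pou3f1 was correlated with Rgs14 (r = 0.718, rho = 0.677, permutation p = 0.00018 and 0.00084, adjusted 0.0027 and 0.00945) and with Fibcd1 (r = 0.679, rho = 0.781, permutation p = 0.00028 and 3e-05, adjusted 0.00315 and 0.00135). Without the 2 libraries farthest from the median of Fibcd1, or of Pou3f1 for its pair with Rgs14, r was 0.645, 0.629, 0.619 and 0.708 in this order. Only the last pair joins genes of 1 field, so that 1 of 12 pairs within a field and 3 of 33 between fields passed. Map3k15 falls into separate sets of libraries, so its 9 pairs stay in the adjustment but no r is given for it. Over the other 36 pairs the median r was 0.31 within fields and 0.28 between them. Without KD SH 5 these were 0.15 and 0.08, and the same 4 pairs passed with adjusted p of 0.017. With the group means subtracted, 5 pairs passed. No share of passing pairs was computed over all genes tested, so these counts are not read as particular to the members.

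**Figure D5:**
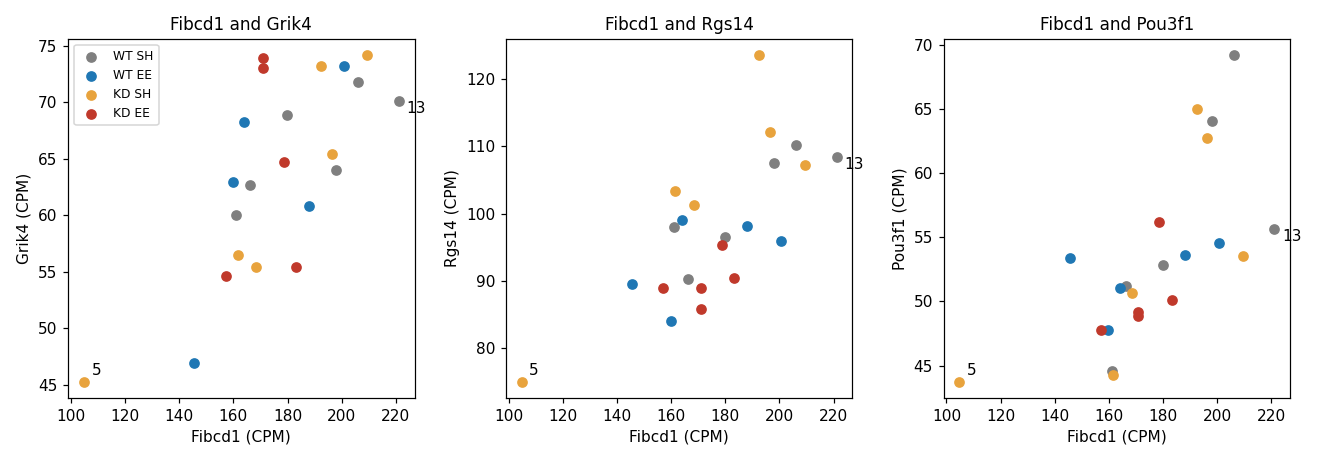
Grik4, Rgs14 and Pou3f1 in CPM (y axes) against Fibcd1 in CPM (x axes) in 22 libraries (points, coloured by group), with KD SH 5 and WT SH 13, the lowest and highest for Fibcd1, marked by their library numbers. The 3 genes rise with Fibcd1 also among the points other than these 2, with r of 0.645, 0.629 and 0.708.

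The genes whose pattern over the 22 libraries was most like that of each member other than Map3k15 were sought among 15020 genes with a mean of at least 1 CPM, by Pearson r on log2 values, as a description with no test. Map3k15 is left out because its levels fall into separate sets of libraries, as stated for the correlations. The closest were Grm2 for Wfs1 (0.84), Capn5 for Fibcd1 (0.92), Hnrnpul1 for Mpped1 (0.82) and Mapk8ip2 for Pou3f1 (0.85). For CA2 they were Ddn for Rgs14 (0.88) and Cog8 for Amigo2 (0.76), and for CA3 Zfp955a for Iyd (0.72), Tmem160 for Bok (0.89) and Zscan18 for Grik4 (0.88). No member was closest to another member, and none of these closest genes was on a list used here.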

How the data were processed

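Polyadenylated RNA of whole mouse hippocampus was sequenced as paired reads. The authors trimmed reads with Skewer, aligned them with STAR (2.5) to GRCm38 and counted uniquely aligned reads for each gene symbol with HTSeq on both strands together. The deposited files hold these raw counts, without normalization, for each library. A second deposited table, of counts divided by DESeq2 size factors for 17 libraries, was not used. Of 24 libraries, 22 entered here, and 33B and 34B, which failed the study's quality control, entered an alternative.

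Genes were filtered with filterByExpr, scaled by TMM and fitted with edgeR's quasi-likelihood model, which had 1 coefficient per group (edgeR 4.0.16, R 4.3.3). DESeq2 1.42.0 was an alternative. CPM were computed with the TMM factors of the fit, and levels per kilobase with the exon length of GENCODE M21. Correlations used permutation tests with 100000 resamples, two-sided. The fit was tested on simulated data. Of 50 pairs of libraries within groups, none held identical counts or agreed within sampling noise. Since no label ties libraries to mice, cages or litters, p-values measure the spread between libraries and not that between cages or litters. Floors cover counting error only.

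The members and lists were chosen with earlier results of these data known. The text names the 10 members, the targeted gene, the highest and lowest gene of a list whose range is given, the gene most like each member other than Map3k15, genes that overlap a member's exons, Ttr, and Pcp4, Ntf3 and Necab2, which were named after their values were seen. Promoter windows came from RefSeq.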

Additional observations from a re-analysis of the deposited data

Results flagged for a closer look

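Of 40 sets of values, 1 for each member in each group, 2 held a library far from the others of its group by Dixon's test at the 95% level, where chance alone gives about 1 in 20. Pou3f1 was at 56.2 CPM in KD EE 7, and the other 4 KD EE libraries lay between 47.7 and 50.1 CPM. Map3k15 was at 4.00 CPM in KD SH 2, and the range of the other 5 KD SH libraries was 1.68 to 2.55 CPM. KD SH 2 also had the highest choroid plexus sum of the SH libraries (2924 CPM), and it is 1 of the 5 libraries the study left out. Without it the averaged log2 fold change of Map3k15 between housings was 0.53, against 0.43 with it.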

How the results depend on the processing

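The count of members called, 0 of 10 in each of 7 comparisons, was 0 under every alternative run except over the 17 libraries of the study, where it was 1, Map3k15, in WT, in KD and for averaged housing (0.84, 0.76 and 0.80). Leaving out each of the 22 libraries in turn left it at 0. Some named log2 fold changes turned sign, and the cause was not tested. With the choroid plexus list as a covariate, averaged housing gave 0.019 for Mpped1, -0.057 for Map3k15 and -0.035 for Bok, and Map3k15 in KD gave -0.13. With that covariate over the 17 libraries, Amigo2 gave -0.23 for averaged housing, -0.32 in WT and -0.145 in KD, and WT against KD gave -0.026 for Mpped1 and -0.0019 for Pou3f1. Housing and the list are nearly confounded in these 17. Without lettered libraries Grik4 gave 0.093 for housing, and for genotype Mpped1 gave -0.052, Rgs14 -0.00074, Amigo2 0.00083 and Grik4 -0.00046. For genotype, Mpped1 gave -0.015 over the 17 libraries. With the subiculum and neocortex list as a covariate, Rgs14 gave -0.0065, Map3k15 -0.0025, Bok -0.015 and Grik4 -0.018. Map3k15 for genotype gave -0.063 over 24 libraries, -0.023 without libraries 12 and 14 and -0.0027 with at least 10 counts in every library. Leaving out 1 library turned the sign of 26 of 616 values. The ranges of these were -0.030 to 0.0096 (Mpped1) and -0.054 to 0.023 (Grik4) for housing. For genotype they were -0.0015 to 0.038 (Mpped1), -0.025 to 0.040 (Rgs14), -0.078 to 0.0076 (Amigo2), -0.073 to 0.096 (Map3k15) and -0.0060 to 0.074 (Grik4). The count of correlated pairs was 4, and 4 to 6 under the alternatives with a test. Without the 2 libraries farthest from the median, which was not tested, 1 pair kept an r as high as the lowest of the 4 (0.679), and the median r over the 36 pairs without Map3k15 was 0.16 within fields and 0.15 between them. No paired analysis was possible because the groups share no replicate numbers. Depth limits Map3k15 and Iyd most, with as few as 12 and 38 counts. The correlations without KD SH 5 and the fit of the 17 libraries with the choroid plexus covariate were added after the data were seen.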
